A study of Mus musculus with 14 samples.

Results

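The genes described here are the cytosolic aminoacyl-tRNA synthetases together with the enzymes, transporters and regulators of the amino acid stress response, measured in bone marrow cells sorted as Sca1-positive and cKit-negative. Of 34 listed genes, 32 are represented on the array by 61 probe sets, out of 22626 probe sets tested, and Dars and Mars are not analysed here. Where several probe sets stand for a gene, the brightest on average was used. The mice carried Matrigel, a basement membrane extract without tumour cells (Matrigel, n = 4), a BPLER tumour described as instigating (Instigator, n = 5) or a size-matched PC3 tumour described as non-instigating (Non-instigator, n = 5). An instigating tumour promotes the outgrowth of indolent tumour cells elsewhere in the same host. BPLER is a line of transformed human breast epithelial cells and PC3 a human prostate carcinoma line, so each tumour arm rests on 1 line and the tumours differ in tissue of origin as well as in instigating activity. The labels give no mouse strain, age, sex, genotype or time after implantation, and they do not state whether different animals gave the replicate arrays, so p-values here reflect only the spread between arrays, which may be technical.

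Each aminoacyl-tRNA synthetase joins an amino acid to its matching tRNA. When amino acids run short, uncharged tRNA activates the kinase GCN2 (Eif2ak4), which phosphorylates the initiation factor eIF2 and lowers general translation while translation of the transcription factor ATF4 rises. ATF4, with partners such as CHOP (Ddit3), binds C/EBP-ATF response elements (CARE) and induces asparagine synthetase, serine synthesis enzymes, amino acid transporters and many of the synthetases themselves. IMPACT binds the GCN2 cofactor GCN1 and restrains GCN2. The arrays measure mRNA, whereas ATF4 and GCN2 are controlled largely in translation and in protein activity.

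The core letters of the CARE, TGATGNAA, were searched on both strands of the RefSeq promoter windows, which run from 250 bases before to 50 bases after a gene's start (GRCm38.p6). Windows were matched for 25 of the 34 genes, and 9 of these (36%) held at least 1 match: Aars, Asns, Chac1, Gars, Iars, Slc7a11, Tars, Trib3 and Yars. Over all 27025 genes with a window, 4.51% held a match, and 3.97% of the 32851 windows did. The full cyclic AMP response element TGACGTCA, its own reverse complement, shares several letters with the CARE core, but no single stretch matches both. It was in 0 of the 25 and in 2.03% of all genes. In Iars, Trib3 and Yars the only match lay after the start. The upstream matches of the other 6 genes are printed because these are the letters through which ATF4 is known to act. Each is read 5′ to 3′ on the gene's own strand and ends at the latest at the base before the start, with the core or its reverse complement in capitals. The windows are chr8:111033708-111033759 (Aars, plus strand), chr6:7693210-7693254 (Asns, minus strand), chr2:119351027-119351078 (Chac1, plus strand), chr6:55037949-55038000 (Gars, plus strand), chr3:50443631-50443701 (Slc7a11, minus strand) and chr15:11399659-11399695 (Tars, minus strand).
Aars: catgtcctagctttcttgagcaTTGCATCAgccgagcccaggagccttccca
Asns: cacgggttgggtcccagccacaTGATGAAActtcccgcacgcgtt
Chac1: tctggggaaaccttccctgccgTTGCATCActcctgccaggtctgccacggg
Gars: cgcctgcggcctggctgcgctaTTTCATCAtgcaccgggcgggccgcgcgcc
Slc7a11: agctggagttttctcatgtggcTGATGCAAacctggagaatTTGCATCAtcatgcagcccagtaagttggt
Tars: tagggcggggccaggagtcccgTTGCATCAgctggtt
The match begins 23 bases before the start in Asns, 30 in Gars, 15 in Tars and 112 in Aars, and Slc7a11 holds a pair in opposite orientation, beginning 66 and 47 bases before its start. A match is a description of the letters and not a measured binding site.

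Values are log2 of the deposited RMA intensity, so a difference of 1 is a doubling, and levels are not compared between genes because probe sets differ in brightness. Differences were tested with limma over all 22626 probe sets with Benjamini-Hochberg adjustment, and a call is an adjusted p under 0.05. Kit, selected against in the sort, lay between 6.82 and 8.05 and the pan-leukocyte gene Ptprc between 11.01 and 11.91 over the 14 arrays. The Sca1 gene Ly6a is not analysed here. Instigator 4 stood apart in its control probe sets: the 5′ beta-actin set read below the 3′ set by a log2 difference of -3.41, where the remaining arrays gave -0.81 to -0.51. Matrigel 3 had the highest median log2 intensity, at 7.18, where the remaining arrays gave 6.90 to 7.01. The description field of the array titled Instigator 5 names the PC3 tumour. It was kept by its title and source label, and the counts with it moved to Non-instigator are given beside the comparisons with Instigator arrays.

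Against Matrigel, the Instigator arrays were lower for Impact and higher for several synthetases, with Gars the most separated, but no gene of the group passed the test. The numbers called were 0 of 32 genes and 0 of 22626 probe sets (0%). At an unadjusted p under 0.05, limma gave 4 of the 32 genes higher (Aars, Eprs, Farsb and Gars) against 3.27% of all probe sets, and 1 lower (Impact) against 7.00%. Over all 12393 genes, with 1 probe set each, the shares were 3.63% higher and 5.16% lower. Leaving out single arrays gave between 3 and 9 genes in both directions together. The count was 3 (9.38%) without Matrigel 2, where 8.79% of probe sets passed, and 9 (28.1%) without Instigator 2, against 11.1%. Without Instigator 4 and Matrigel 3 it was 2 of 32 (6.25%), where 6.86% of probe sets passed the same level. The median difference over the 32 genes was 0.13, beside -0.02 over all 12393 genes. Of the 32, 22 (68.8%) lay above 0, against 45.9% of all genes and 42.8% of probe sets. With each array centred on its median, 26 of 32 genes and 61.1% of probe sets lay above 0, and the median of all genes moved from -0.02 to 0.06. Without Instigator 4 the median was 0.06 with 20 of 32 above 0, and without Instigator 4 and Matrigel 3 together it was 0.09 with 25 of 32 above 0, against 56.7% of probe sets. With Instigator 5 counted as Non-instigator, 6 of the 32 genes (18.8%) had an unadjusted p under 0.05, against 12.9% of probe sets. Farsb and Nars then joined Eprs and Gars in lying fully above Matrigel (4 of 32, against 1.76% of probe sets).

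**Figure D1:**
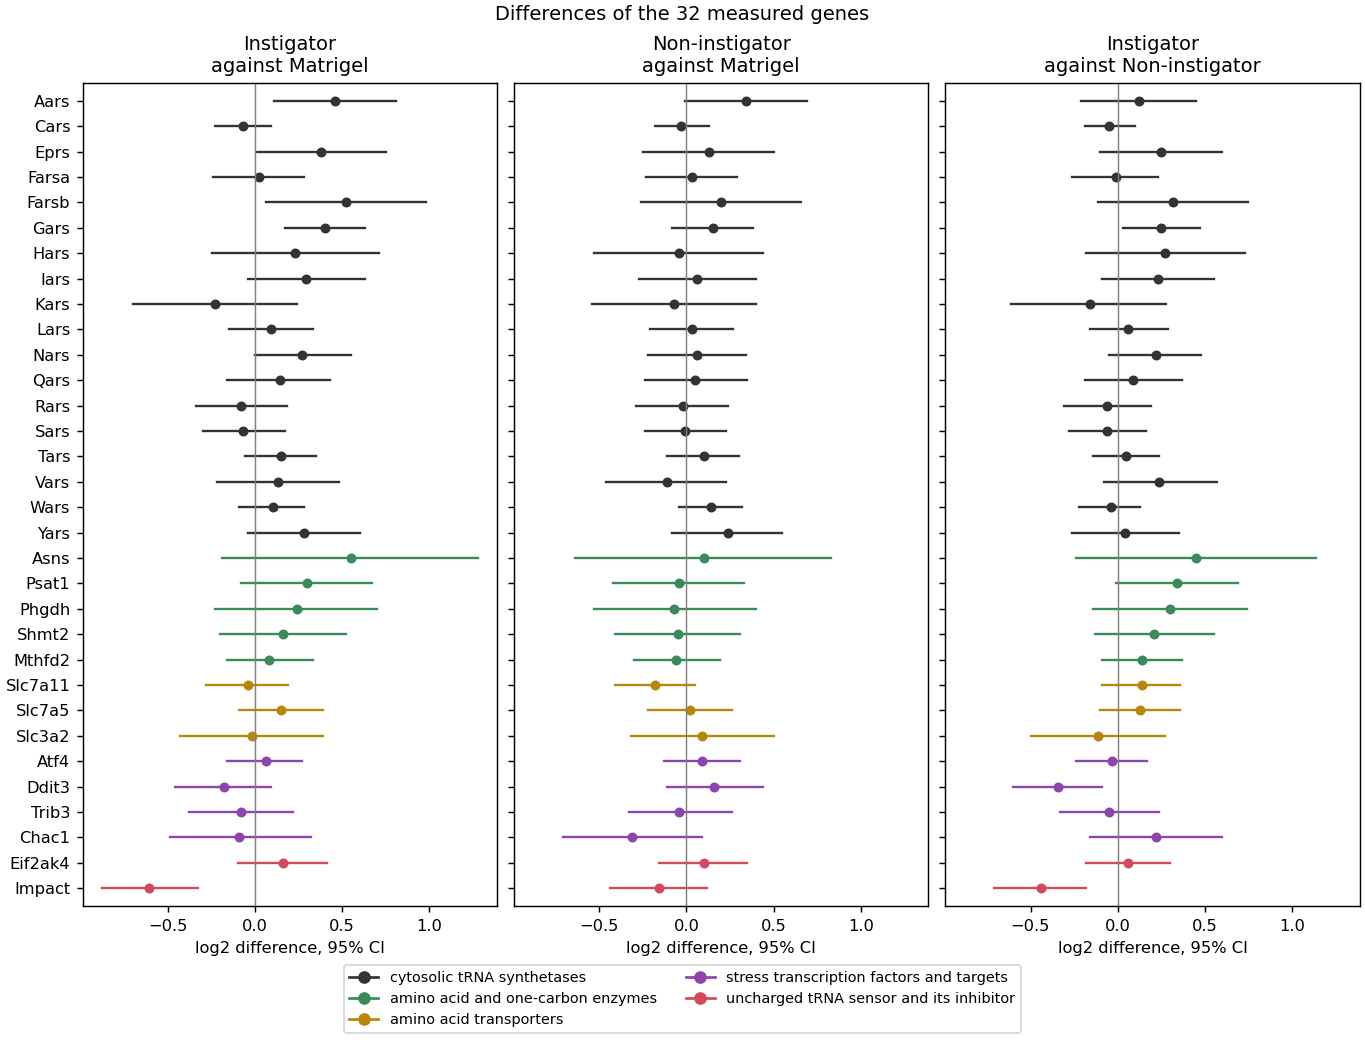
Log2 difference (x axis) of each of the 32 measured genes (y axis) in the 3 comparisons, with dots for the limma estimate, lines for its 95% confidence interval and colours for the role of the gene. In the first panel the intervals of Aars, Eprs, Farsb and Gars lie above 0 and that of Impact below it, and none of these differences passed after adjustment.

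Impact was the gene of the group that separated the Instigator arrays from both other groups. It read 7.57, 7.73, 7.51, 7.69 and 7.78 on Instigator 1 to 5. On Matrigel 1 to 4 it read 8.43, 8.31, 8.46 and 7.84, and on Non-instigator 1 to 5 it read 8.04, 7.88, 7.99, 8.28 and 8.31. All 5 Instigator arrays lay below all 9 others, with Matrigel 4 and Non-instigator 2 nearest. The Instigator mean was 7.66 ± 0.11 (SD, n = 5). Matrigel arrays had a mean of 8.26 ± 0.29 (SD, n = 4), and the Non-instigator mean was 8.10 ± 0.19 (SD, n = 5). Impact differed from Matrigel by -0.61 (SE 0.13, 95% confidence interval -0.88 to -0.33, limma adjusted p = 0.439), which is a level 1.52-fold lower. In bulk samples such as these, fewer cells of a type and less RNA per cell cannot be told apart. Groups failed to overlap in the lower direction at 1.68% of all probe sets in this comparison. The difference was -0.61 without Instigator 4, -0.55 without Instigator 4 and Matrigel 3, and between -0.75 and -0.53 over the 25 alternatives. Eif2ak4, the kinase that IMPACT restrains, had an Instigator mean of 7.59 ± 0.16 (SD, n = 5), where Matrigel gave 7.43 ± 0.18 (SD, n = 4). Its difference of 0.16 (SE 0.12) had a 95% confidence interval from -0.10 to 0.41 (limma adjusted p = 0.630), and it was 0.09 without Instigator 4.

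**Figure D2:**
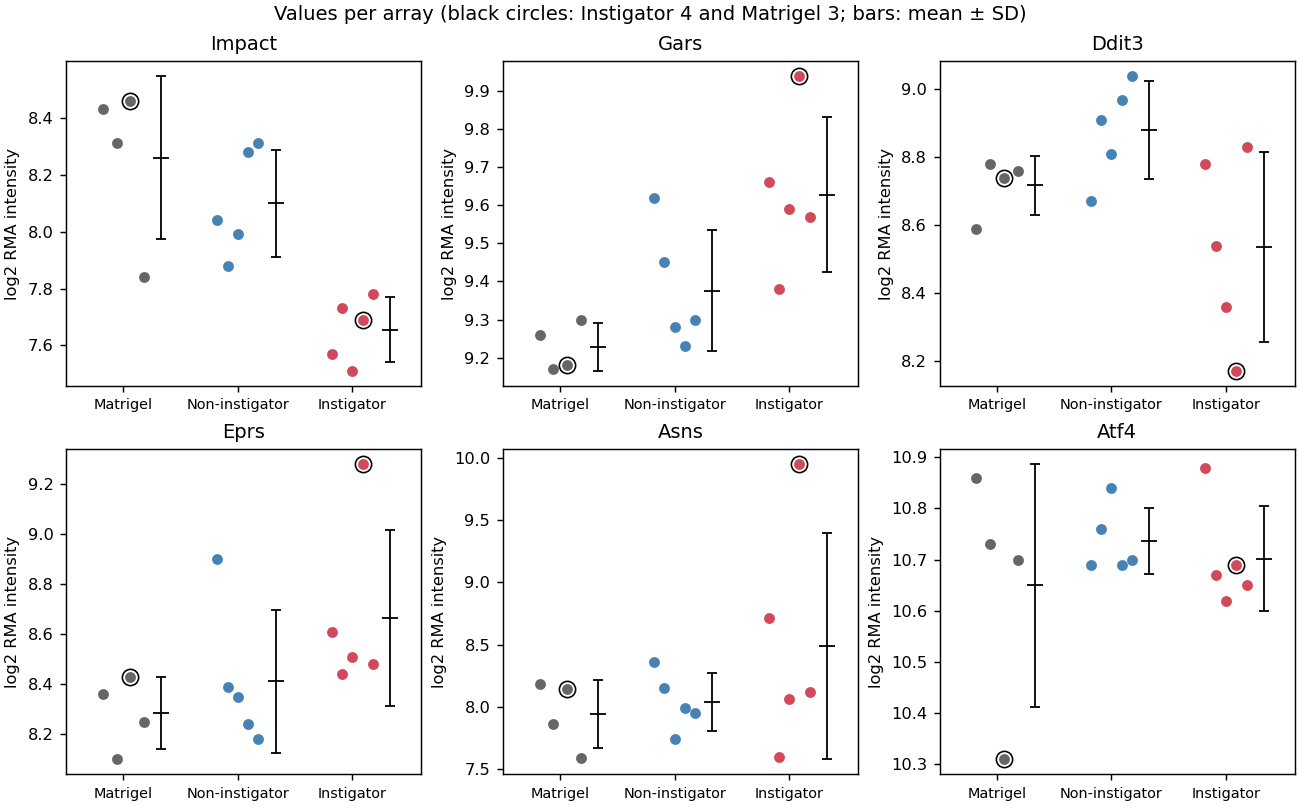
Log2 RMA intensity per array (y axis) of Impact, Gars, Ddit3, Eprs, Asns and Atf4 in the 3 groups (x axis), with dots for arrays, bars for the mean ± SD and black circles around Instigator 4 and Matrigel 3. The 5 Instigator values of Impact, 7.51 to 7.78, lie below all others, whereas the Asns mean of that group is raised by Instigator 4 at 9.95.

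Gars, the glycyl-tRNA synthetase, read 9.66, 9.38, 9.59, 9.94 and 9.57 on Instigator 1 to 5 and 9.26, 9.17, 9.18 and 9.30 on Matrigel 1 to 4. The lowest Instigator array lay above the highest Matrigel array, a separation in the higher direction that 1.02% of all probe sets showed. The difference was 0.40 (SE 0.11, 95% confidence interval 0.17 to 0.63, 1.32-fold, limma adjusted p = 0.439). Gars has 1 probe set, and its difference was 0.32 without Instigator 4 and 0.31 without Instigator 4 and Matrigel 3. Eprs, the fused glutamyl- and prolyl-tRNA synthetase, also separated the groups, at 8.61, 8.44, 8.51, 9.28 and 8.48 on Instigator 1 to 5 against 8.36, 8.10, 8.43 and 8.25 on Matrigel 1 to 4. The nearest Instigator and Matrigel values were 8.44 and 8.43, so the groups hardly part. Its difference was 0.38 (SE 0.17, limma adjusted p = 0.479), and 0.23 without Instigator 4. The other Eprs probe sets differed by -0.47 and -0.31, and the mean of its sets by -0.14.

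The other synthetases with small p values, like Eprs, rest more on single arrays than Gars. Farsb, the beta subunit of phenylalanyl-tRNA synthetase, read 8.89, 8.73, 8.96, 9.91 and 8.55 on Instigator 1 to 5 and 8.65, 8.44, 8.33 and 8.52 on Matrigel 1 to 4. Its difference of 0.52 (SE 0.22, limma adjusted p = 0.446) was 0.30 without Instigator 4. Its other 3 probe sets differed by 0.22, -0.01 and -0.26, and the mean of its sets by 0.12. The alpha subunit Farsa, its partner in the same enzyme, differed by 0.02 (SE 0.12). Aars, the alanyl-tRNA synthetase, read 8.55, 8.36, 8.53, 8.96 and 8.46 on Instigator 1 to 5 and 8.41, 8.32, 7.49 and 8.25 on Matrigel 1 to 4, where Matrigel 3 is far below the others. Its difference of 0.46 (SE 0.16, limma adjusted p = 0.442) was 0.15 (SE 0.07) without Instigator 4 and Matrigel 3.

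Over all 18 measured synthetases, 14 lay above 0 and 4 below against Matrigel, with a median of 0.14 and a range from -0.23 (Kars) to 0.52 (Farsb), and 0 were called in either direction. The asparaginyl enzyme Nars differed by 0.27 (SE 0.13), the isoleucyl enzyme Iars by 0.29 (SE 0.16) and the tyrosyl enzyme Yars by 0.28 (SE 0.15). Without Instigator 4 these were 0.15, 0.19 and 0.17. Those below 0 were Kars, Cars at -0.07, Rars at -0.08 and Sars at -0.07, and without Instigator 4 the last 3 were between -0.03 and -0.01. Kars, the lysyl enzyme, was at 8.05 on Instigator 4 and between 9.02 and 9.36 on the other Instigator arrays, and without Instigator 4 its difference was -0.01. Hars went from 0.23 to -0.03 without that array, where it read 11.83 against 10.34 to 10.87. Without Instigator 4 the median of the 18 was 0.10 with 12 above 0.

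All 5 enzymes of asparagine, serine and folate metabolism lay above 0 against Matrigel, with a median of 0.24. Asns, which makes asparagine, read 8.71, 7.60, 8.06, 9.95 and 8.12 on Instigator 1 to 5 and 8.18, 7.86, 8.14 and 7.59 on Matrigel 1 to 4. Only Instigator 1 and 4 lay above the Matrigel range, and the difference of 0.55 (SE 0.34, 95% confidence interval -0.19 to 1.28, limma adjusted p = 0.576) was 0.18 without Instigator 4. Psat1, the aminotransferase of serine synthesis, differed by 0.30 (SE 0.18), and Phgdh, which opens that pathway, by 0.24 (SE 0.22). Phgdh read 11.25 on Instigator 4 against 10.24 to 10.53 on the other Instigator arrays, and differed by 0.05 without it. The mitochondrial folate enzymes Shmt2 and Mthfd2 differed by 0.16 (SE 0.17) and 0.08 (SE 0.12), or by 0.07 and 0.06 without that array. Without Instigator 4 the median of the 5 enzymes was 0.07.

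**Figure D3:**
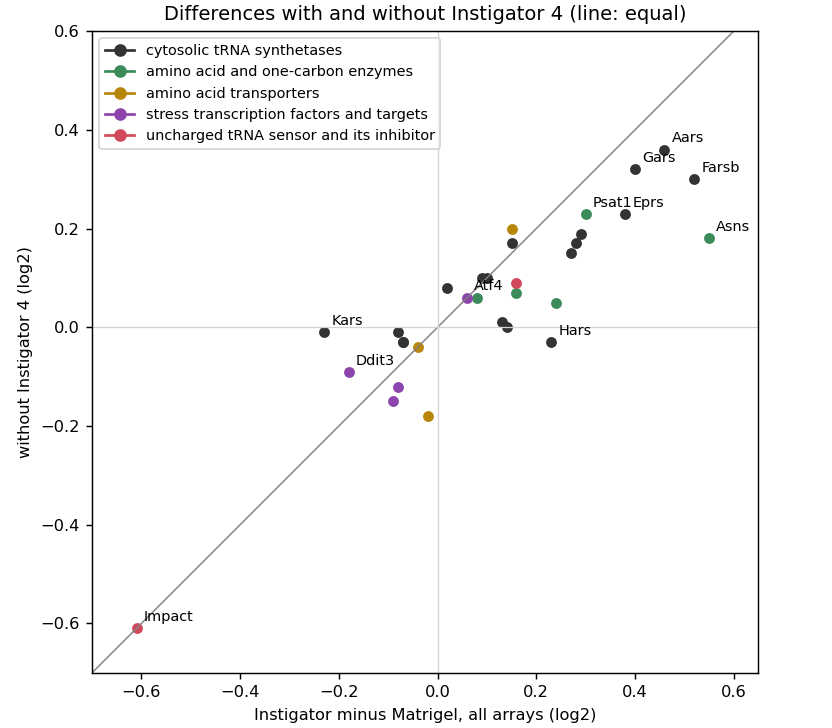
Log2 difference between Instigator and Matrigel arrays with all arrays (x axis) and without Instigator 4 (y axis), with 1 dot per gene coloured by role and a line where both are equal. Asns moves from 0.55 to 0.18, Hars from 0.23 to -0.03 and Kars from -0.23 to -0.01, whereas Impact stays at -0.61 and Gars moves from 0.40 to 0.32.

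Among the 4 stress factors and targets, 1 lay above 0 in the first comparison, with a median of -0.08. Atf4 read 10.88, 10.67, 10.62, 10.69 and 10.65 on Instigator 1 to 5 and 10.86, 10.73, 10.31 and 10.70 on Matrigel 1 to 4, a difference of 0.06 (SE 0.10, 95% confidence interval -0.16 to 0.27, limma adjusted p = 0.848). Without Matrigel 3 that difference was -0.06. Ddit3 differed by -0.18 (SE 0.13, limma adjusted p = 0.609), or by -0.09 without Instigator 4. The ATF4 targets Trib3, a pseudokinase, and Chac1, which breaks down glutathione, differed by -0.08 (SE 0.14) and -0.09 (SE 0.19), or by -0.12 and -0.15 without Instigator 4. Matrigel 3 was the highest of all arrays for both, at 6.83 for Trib3 and 6.26 for Chac1. Without Instigator 4 and Matrigel 3 together, both differences turned positive, at 0.04 or higher. The transporter subunits Slc7a5 and Slc3a2, which together import large neutral amino acids, differed by 0.15 (SE 0.11) and -0.02 (SE 0.19, or -0.18 without Instigator 4), and the cystine transporter Slc7a11 by -0.04 (SE 0.11).

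The second comparison, Non-instigator against Matrigel, gave smaller differences, and no gene of the group separated the arrays. limma called 0 of 32 genes and 0 of 22626 probe sets (0%). At an unadjusted p under 0.05 there were 0 of 32 genes in either direction, against 0.601% of probe sets higher and 1.51% lower, and 0 genes separated the groups, against 0.287% and 0.610%. The median difference of the 32 genes was 0.03, beside -0.04 over all genes. Of the 32, 18 (56.2%) lay above 0, against 38.3% of all genes and 36.2% of probe sets. Centring each array on its median put 25 of 32 genes and 54.5% of probe sets above 0, and moved the median of all genes from -0.04 to 0.02. The smallest p belonged to Aars at 0.34 (SE 0.16, limma adjusted p = 0.986), a value in which Matrigel 3 is the low array, and without Matrigel 3 and Instigator 4 it was 0.13. It was followed by Wars, the tryptophanyl enzyme, at 0.14 (SE 0.08), Chac1 at -0.31 (SE 0.19), Slc7a11 at -0.18 (SE 0.11) and Yars at 0.24 (SE 0.15).

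Gars read 9.62, 9.45, 9.28, 9.23 and 9.30 on Non-instigator 1 to 5, which overlaps the Matrigel arrays, and differed from them by 0.15 (SE 0.11). Impact differed by -0.16 (SE 0.13), Atf4 by 0.09 (SE 0.10), Ddit3 by 0.16 (SE 0.13), Asns by 0.10 (SE 0.34) and Eif2ak4 by 0.10 (SE 0.12). Each of these 95% confidence intervals included 0, and the widest, for Asns, ran from -0.64 to 0.83. Among the 18 synthetases 12 lay above 0 with a median of 0.05. Non-instigator 1 was the highest array of its group for 15 of the 18, and without it the median of all 32 genes was 0.00.

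The third comparison, Instigator against Non-instigator, sets the 2 tumours against each other at matched size and shares the Instigator arrays with the first. limma called 0 of 32 genes and 0 of 22626 probe sets (0%). At an unadjusted p under 0.05, Gars was higher (1 of 32, against 2.24% of probe sets) and Ddit3 and Impact were lower (2 of 32, against 3.36%). The median over the 32 genes was 0.10, beside 0.03 over all genes. Of the 32, 21 (65.6%) lay above 0, against 58.2% of all genes and 55.8% of probe sets. Without Instigator 4 the median was 0.06, beside 0.02 over all genes. With Instigator 5 counted as Non-instigator, 7 of the 32 (21.9%) had an unadjusted p under 0.05, against 9.40% of probe sets: Farsb, Nars, Psat1, Mthfd2 and Gars higher, and Ddit3 and Impact lower. In the higher direction 0 of the 32 separated the groups, against 0.751% of probe sets. Impact differed by -0.44 (SE 0.12, 95% confidence interval -0.71 to -0.18, limma adjusted p = 0.813), with all 5 Instigator arrays below all 5 Non-instigator arrays, which 0.446% of probe sets showed. The Instigator array nearest to the other group was Instigator 5 at 7.78, just below Non-instigator 2 at 7.88. With Instigator 5 counted as Non-instigator the difference was -0.42, and the groups still did not overlap.

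Ddit3, which encodes the stress factor CHOP, read 8.78, 8.54, 8.36, 8.17 and 8.83 on Instigator 1 to 5 and 8.67, 8.91, 8.81, 8.97 and 9.04 on Non-instigator 1 to 5. The groups overlapped through Instigator 1 and 5. The difference was -0.34 (SE 0.12, 95% confidence interval -0.60 to -0.09, limma adjusted p = 0.813), -0.25 without Instigator 4 and -0.41 with Instigator 5 moved. Gars was higher in Instigator arrays by 0.25 (SE 0.10, 95% confidence interval 0.03 to 0.47, limma adjusted p = 0.813), and by 0.17 without Instigator 4. Non-instigator 1 at 9.62 lay above 3 of the Instigator arrays, so these groups overlapped.

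The serine and folate enzymes lay above 0 in this comparison as well, 5 of 5 with a median of 0.30, and 0.12 without Instigator 4. Psat1 read 10.28, 10.19, 10.68, 10.69 and 10.16 on Instigator 1 to 5 and 10.51, 10.11, 10.04, 10.07 and 9.57 on Non-instigator 1 to 5. Its difference was 0.34 (SE 0.17, limma adjusted p = 0.813), and 0.27 without Instigator 4. Non-instigator 5 was the lowest array for Psat1 and, at 8.97, for Shmt2. Nars differed by 0.22 (SE 0.12, limma adjusted p = 0.813), Asns by 0.45 (SE 0.32), Atf4 by -0.03 (SE 0.10) and Eif2ak4 by 0.06 (SE 0.11). Without Instigator 4, Nars differed by 0.10, Asns by 0.08 and Eif2ak4 by 0.00. With Instigator 5 moved, Chac1 separated the tumour groups in the higher direction, which 0.782% of probe sets then did.

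A few arrays held many of the extreme values. Instigator 4 held the highest value of all 14 arrays for 15 of the 32 genes and the lowest for 5. Matrigel 3 was highest for 6 and lowest for 6, and Matrigel 2 was lowest for 9. Non-instigator 1 was the highest of its own group for 22 of the 32. The mean log2 level of the 18 synthetases ran from 8.67 to 8.85 in Matrigel arrays, from 8.78 to 9.14 in Instigator arrays and from 8.74 to 9.07 in Non-instigator arrays, so the groups overlapped. Instigator 4 and Non-instigator 1 were the top arrays, and without Instigator 4 the Instigator range ended at 8.95.

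**Figure D4:**
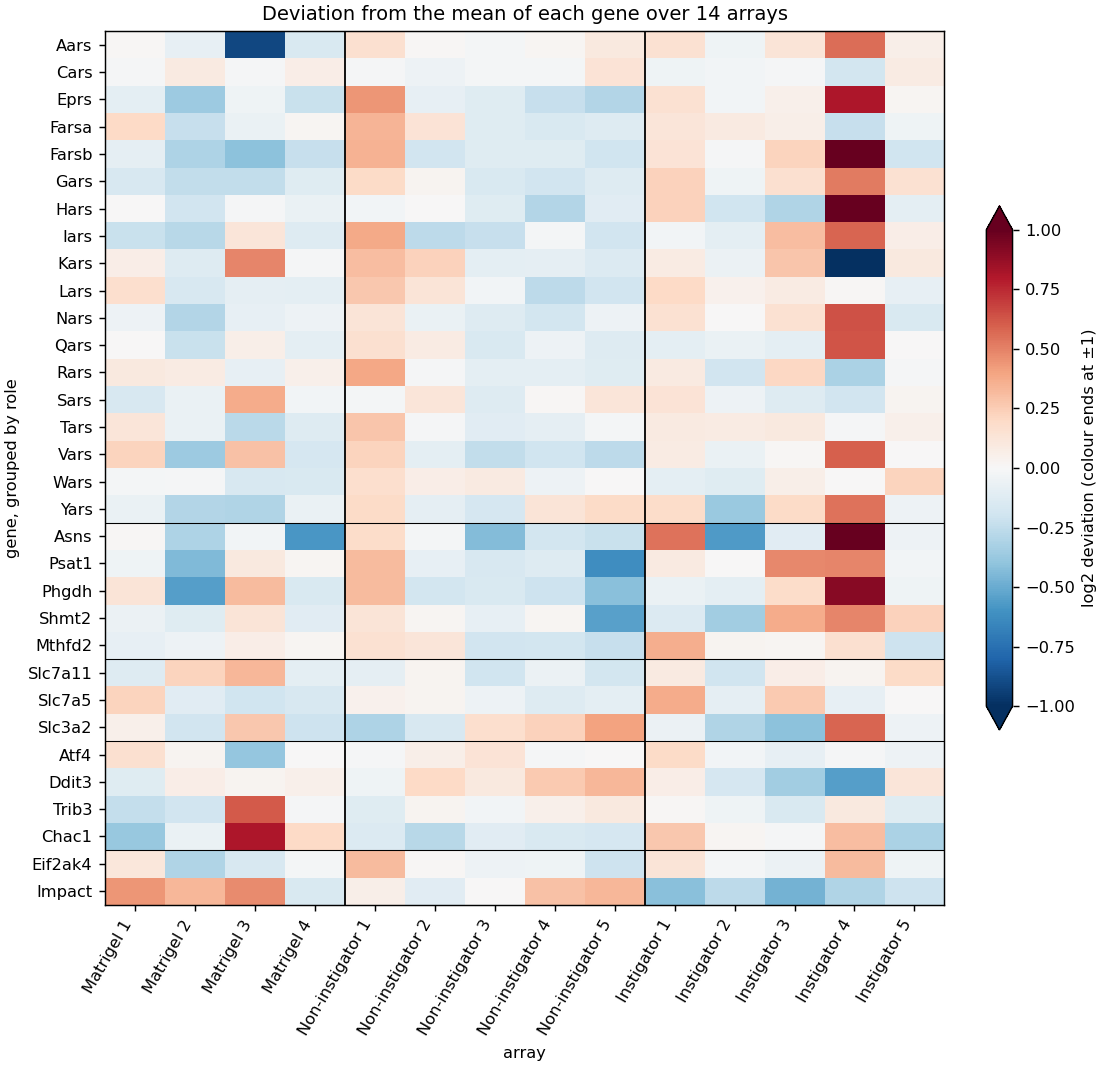
Deviation of each gene (rows, grouped by role) from its mean over the 14 arrays (columns, grouped as Matrigel, Non-instigator and Instigator), in log2 units with red above and blue below. Instigator 4 holds most of the strong colours, the first of the Non-instigator arrays is red over most synthetases, and the bottom row, Impact, is blue on all 5 Instigator arrays.

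Probe sets of the same gene parted on the arrays that stood apart. For the 17 genes with several probe sets, each set was expressed relative to its own median over the arrays, and the range between the sets of a gene was taken on each array. The median range was 0.68 on Instigator 4 and 0.58 on Matrigel 3, against 0.11 to 0.15 on the other 12 arrays. It exceeded 1 for 7 genes on Instigator 4, for 2 on Matrigel 3 and for 0 on the others. Eprs parted most: on Instigator 4 its brightest set read 9.28 while the other sets read 7.08 and 7.11, so that these differed from Matrigel by -0.47 (SE 0.24) and -0.31 (SE 0.26) with all arrays. Without Instigator 4 they differed by -0.24 and -0.03. For Aars the dimmer set differed by -0.17 (SE 0.12), opposite to the brighter set. Aars, Eprs and Farsb, which had an unadjusted p under 0.05 against Matrigel, are among the 7 genes whose sets lay on both sides of 0, and Gars has only 1 set. In the same comparison, the other 10 of the 17 genes had all sets on the same side of 0, among them Asns at 0.55 and 0.37, Iars at 0.29 and 0.22, and Atf4 at 0.06 to 0.07. The part of RNA quality in these differences was not tested.

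**Figure D5:**
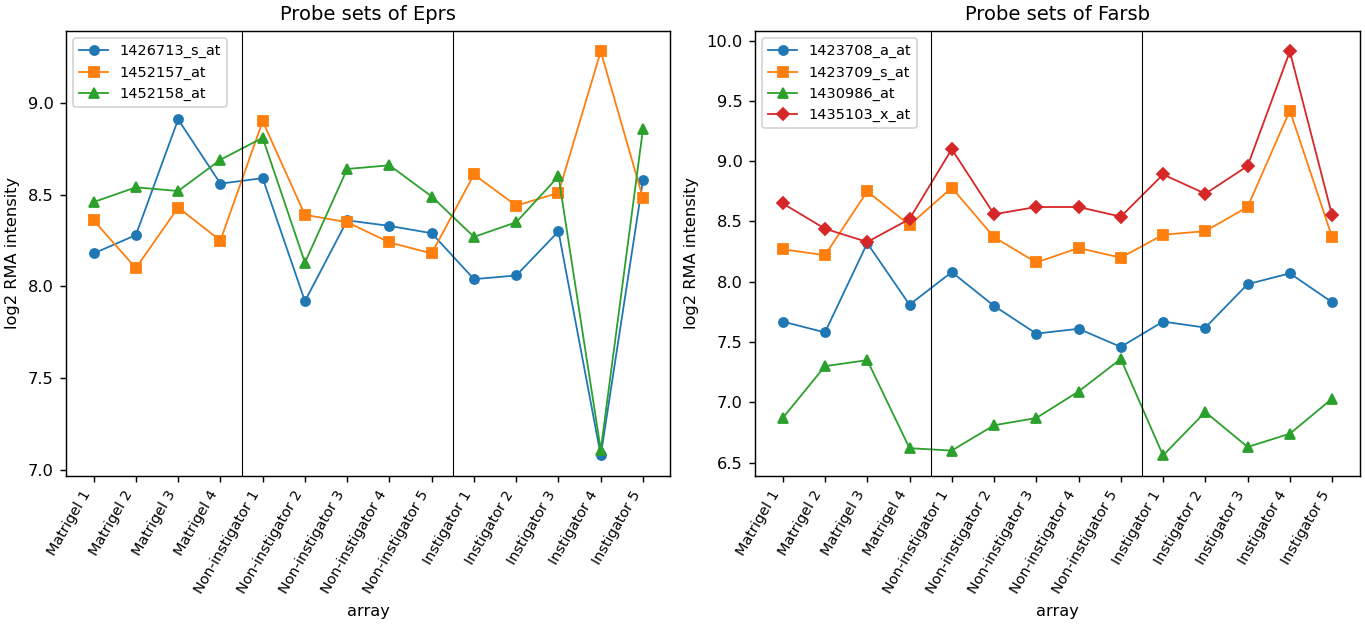
Log2 RMA intensity (y axis) of each probe set of Eprs (left) and Farsb (right) on the 14 arrays (x axis), with 1 line per probe set and vertical lines between the groups. On Instigator 4 the Eprs sets part, at 9.28, 7.08 and 7.11, and the brightest Farsb set rises to 9.91.

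Genes were also set apart by the CARE core in their promoter window. Of the 9 measured genes with the core, 6 lay above 0 against Matrigel in Instigator arrays, with a median of 0.28 and a range from -0.09 to 0.55. Of the 14 measured genes with a window but no core, 10 lay above 0, with a median of 0.11. Without Instigator 4 the medians were 0.17 and 0.06, and without Instigator 4 and Matrigel 3 they were 0.13 and 0.09. In the latter setting 9 of 9 genes with the core and 11 of 14 without it lay above 0, against 56.7% of probe sets. These are descriptions with no test, and Gars, Aars and Asns, which hold the core, differed in how much they moved when single arrays were left out.

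Neighbouring parts of the pathway gave 0 calls in every comparison. Of 17 listed mitochondrial synthetases 8 were measured. They had a median of -0.13 against Matrigel in Instigator arrays, with 2 above 0 and a range from -0.16 to 0.08, beside the 0.14 of the cytosolic enzymes. Hars2 differed by -0.16 (SE 0.14). Matrigel 3 was the highest Matrigel array for Ears2, Hars2, Iars2, Pars2, Rars2 and Tars2, but not for Fars2 and Sars2. For Ears2 it read 8.09 against 7.18 to 7.30 on the other Matrigel arrays. With Matrigel 3 set aside, Hars2 read 6.83 to 7.36 in Instigator against 7.04 to 7.21 in Matrigel arrays. Iars2 then read 7.86 to 8.38 against 7.99 to 8.26, and Rars2 7.86 to 8.51 against 8.26 to 8.39. The negative median of the mitochondrial enzymes therefore rests largely on that array, as does its contrast with the cytosolic enzymes. The 3 scaffold proteins of the multi-synthetase complex lay below 0, with Aimp1 at -0.26 (SE 0.20), Aimp2 at -0.20 (SE 0.17) and Eef1e1 at -0.14 (SE 0.18). Instigator 4 was the lowest Instigator array for Aimp1 and Aimp2, and without it the 3 differences were -0.07, -0.05 and -0.09. Matrigel 3 was the highest of all arrays for Aimp1, at 10.10, and for Aimp2, at 9.66. With Instigator 4 and Matrigel 3 set aside, Aimp1 read 9.55 to 9.83 in Instigator against 9.48 to 9.81 in Matrigel arrays. Aimp2 then read 9.04 to 9.43 against 9.04 to 9.26, and Eef1e1 7.71 to 8.23 against 7.73 to 8.31. The lower values of Aimp1 and Aimp2 therefore rest on these arrays. Of 11 genes for eIF2 kinases, phosphatase subunits and eIF2 or eIF2B subunits, 5 lay above 0 with a median of -0.02. Among them Eif2b2, a subunit of the exchange factor that eIF2 phosphorylation blocks, separated the groups at 8.61 to 8.79 in Instigator against 8.15 to 8.54 in Matrigel arrays (difference 0.25, SE 0.09, limma adjusted p = 0.439), a separation that 1.02% of all probe sets showed. Without Instigator 4 and Matrigel 3 it differed by 0.14. The kinase PKR (Eif2ak2) differed by -0.33 (SE 0.13, limma adjusted p = 0.442). In Non-instigator against Matrigel arrays Eif2b2 differed by 0.20 (SE 0.09) and Eif2ak2 by -0.21 (SE 0.13).

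Of 16 further ATF4 targets and partners, 8 lay above 0 against Matrigel in Instigator arrays, with a median of 0.01. Cebpg, a dimer partner of ATF4, was lower in all Instigator arrays, at 8.48 to 9.13 against 9.23 to 9.41 (difference -0.34, SE 0.12, limma adjusted p = 0.442), a separation that 1.68% of all probe sets showed. At an unadjusted limma p under 0.05, 2 of the 16 were higher, against 3.27% of all probe sets. In the lower direction there was 1 of 16, Cebpg, against 7.00%. Vldlr, a lipoprotein receptor, was higher by 0.34 (SE 0.12, limma adjusted p = 0.442), with Matrigel 3 the lowest array at 5.03, and by 0.19 without Instigator 4 and Matrigel 3. Jdp2, a bZIP factor named here after its value was seen, was higher by 0.25 (SE 0.11, limma adjusted p = 0.475), or by 0.17 without Instigator 4. The Non-instigator arrays also read above Matrigel for Vldlr, by 0.26 (SE 0.12), and for Jdp2, by 0.24 (SE 0.11). For Cebpg they differed from Matrigel by -0.13 (SE 0.12). The largest difference of these lists was at Ddit4, which encodes the stress-induced mTORC1 inhibitor REDD1. It read 9.49, 10.39, 9.10, 8.65 and 11.14 on Instigator 1 to 5, 10.68, 10.03, 11.52, 12.00 and 10.54 on Non-instigator 1 to 5 and 11.29, 10.74, 9.89 and 10.20 on Matrigel 1 to 4. The groups overlapped, and Instigator differed from Non-instigator by -1.20 (SE 0.46, limma adjusted p = 0.813), or by -0.93 without Instigator 4.

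Of 7 further serine, proline and folate enzymes, 4 lay above 0 in Instigator against Matrigel arrays and 4 in Instigator against Non-instigator arrays. Psph, the phosphatase that completes serine synthesis after Phgdh and Psat1, was lower on all Instigator than on all Matrigel arrays. In the lower direction 1.68% of all probe sets separated these groups. Psph read 8.56, 8.53, 8.60, 8.04 and 8.65 on Instigator 1 to 5, and the nearest Matrigel array read 8.68. Its difference was -0.31 (SE 0.12, limma adjusted p = 0.442), opposite in sign to those of Phgdh and Psat1, and it was -0.20 without Instigator 4 and -0.13 without Instigator 4 and Matrigel 3. Bcat1, a branched-chain aminotransferase, read 8.48, 7.35, 8.60, 8.33 and 7.72 on Instigator 1 to 5 and 7.70, 7.17, 7.71, 7.58 and 6.34 on Non-instigator 1 to 5. Its difference was 0.80 (SE 0.31, limma adjusted p = 0.813), and 0.74 without Instigator 4. The cytosolic folate enzyme Mthfd1 differed by 0.47 (SE 0.19), with Instigator 4 at 10.43, and by 0.26 without it. The glutamine and serine transporter Slc1a5 was at 0.30 (SE 0.13) in Non-instigator against Matrigel and at -0.29 (SE 0.12) in Instigator against Non-instigator arrays (limma adjusted p = 0.986 and 0.813). Of the 9 further transporters, 5 lay above 0 in Instigator against Matrigel arrays, with a median of 0.00.

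Marker genes of other marrow cells also differed between the groups, with 0 calls in any list. All 9 measured plasma cell markers lay below 0 in Instigator against Matrigel arrays, with a median of -0.49. Their summed intensity ran from 8657 to 12983 in Instigator, from 11777 to 15956 in Matrigel and from 8211 to 16213 in Non-instigator arrays. B lineage markers lay below 0 in 10 of 12 cases, with a summed intensity of 3621 to 9009 in Instigator against 7083 to 10597 in Matrigel arrays. Neutrophil markers lay above 0 in 12 of 13 cases. Their summed intensity was 76959 to 83976 in Instigator, 68830 to 75819 in Matrigel and 66720 to 81847 in Non-instigator arrays. The Instigator and Matrigel sums did not overlap, but a sum follows the brightest genes. In mean log2 level of the same markers these groups overlapped, with Instigator 4 at 12.16 and Matrigel 1 at 12.18. Dendritic cell markers lay below 0 in 8 of 9 cases, with a median of -0.66. Of the 9, 6 were lower at an unadjusted limma p under 0.05, against 7.00% of all probe sets. Their summed intensity was 5389 to 9034 in Instigator against 8585 to 11113 in Matrigel arrays. T cell markers lay below 0 in 8 of 8 cases (median -0.33), and those of basophils, mast cells and eosinophils above 0 in 8 of 9 (median 0.48). Between the tumours, NK and cytotoxic markers lay below 0 in 8 of 8 cases (median -0.36). No marker of these lists is at 0, since arrays give a background value, and the dimmest of the plasma cell, B lineage and neutrophil lists were Tnfrsf17 at 7.45, Pax5 at 5.75 and Mmp8 at 9.94 on average. Non-instigator 1, the top array of its group for most synthetases, also had that group's lowest mean log2 level of plasma cell markers (8.89 against 9.55 to 10.11) and of B lineage markers (8.27 against 8.94 to 9.52). Instigator 4, with the highest synthetase mean of all arrays, was not lowest for these lists, at 9.26 and 8.73. Instigator 3 was, at 8.87 and 7.83. Macrophage markers averaged 8.42 on Instigator 4 against 7.49 to 7.80 on the other Instigator arrays. The part of cell composition in the values of these genes was not tested.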

How the data were processed

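Total RNA of the sorted cells was labelled with the NuGen Ovation biotin system and hybridised to Affymetrix arrays, per the labels' protocols. The deposited table holds linear intensity values, which the authors made with RMA (affy, R 2.11.0), per the submitters' processing notes. Log2 was taken with no further normalization. The arrays' median intensity lay between 119 and 145, and the number of arrays limits the precision.

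Control probe sets, 64 in all, were dropped. Among the remaining 22626, 20380 carry 1 symbol in the platform annotation, 691 several and 1555 none. A gene was named only from sets with 1 symbol. All 14 arrays entered 1 fit in limma 3.58.1 (R 4.3.3) with group as factor. The procedure was tested on simulated data. Named in full were Atf4, Ddit3, Asns, Gars, Impact and Eif2ak4, and in each comparison the 5 genes with the smallest p. From each neighbouring list up to 3 genes by p are given with their differences, and Jdp2 was added after its value was seen. The genes and lists were chosen with earlier results of these data known. Promoter sequences are RefSeq's. Alternatives were other samples in the fit, normalizations, filters, variance models and probe sets per gene. Plots used matplotlib 3.10.9 under Python 3.11.15.

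Whether replicate numbers pair the arrays was checked by the correlation of deviations from the group means. It ran from -0.20 to 0.27 over the 13 pairs with the same number, with a median of 0.05, and was over 0.1 in 5. Over the 52 pairs with different numbers it ran from -0.39 to 0.32, with a median of -0.02, and was over 0.1 in 17. As the ranges overlapped widely, the numbers were not taken as pairs.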

Additional observations from a re-analysis of the deposited data

Results flagged for a closer look

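In 96 sets of values (32 genes in 3 groups), 11 held an array far from the others of its group by Dixon's test, and chance marks about 5% of such sets. Of these, 5 are on Instigator 4. It read 9.28 for Eprs against 8.44 to 8.61 on the other Instigator arrays, 8.05 for Kars against 9.02 to 9.36, 11.65 for Qars against 10.92 to 11.03, 7.26 for Vars against 6.59 to 6.74 and 11.25 for Phgdh against 10.24 to 10.53. A further 3 are on Non-instigator 1, which read 9.10 for Farsb against 8.54 to 8.62, 9.54 for Rars against 9.03 to 9.14 and 8.92 for Tars against 8.52 to 8.62. The others are Cars on Non-instigator 5 at 7.42 against 7.23 to 7.27, Nars on Matrigel 2 at 9.82 against 10.03 to 10.06 and Atf4 on Instigator 1 at 10.88 against 10.62 to 10.69.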

How the results depend on the processing

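Under 25 alternative fits, 0 of the genes were called in any comparison, and 22 of the 28 named differences kept their sign under every alternative. The number of probe sets called against Matrigel in Instigator arrays went from 0 to 1 (a set of Scd2, not of this gene group) without Instigator 4, and to 1 without Instigator 4 and Matrigel 3, while leaving out any other single array kept it at 0. Signs turned as follows, each for a difference that was not called. Atf4 in Instigator against Matrigel arrays was -0.01 with array weights, -0.06 without Matrigel 3 and -0.06 without Instigator 4 and Matrigel 3. Atf4 in Non-instigator against Matrigel arrays was -0.03 without Matrigel 3, -0.03 without Instigator 4 and Matrigel 3, and -0.02 with the mean of its probe sets, which also gave 0.08 in Instigator against Non-instigator arrays. Eprs was -0.14 against Matrigel with the mean of its probe sets. Asns in Non-instigator against Matrigel arrays was -0.02 without Matrigel 4. Eif2ak4 between the tumours was 0.00 without Instigator 4, with or without Matrigel 3. Leaving out 1 array at a time, these ran from -0.06 to 0.13 (Atf4, Instigator against Matrigel), from -0.02 to 0.17 (Asns, Non-instigator against Matrigel) and from 0.00 to 0.14 (Eif2ak4 between the tumours). The cause of the turns was not tested. When the replicate number entered as a block, the genes' medians were 0.16, 0.05 and 0.10 in the 3 comparisons, and the smallest adjusted p of the genes in the first was 0.299 by limma. The brighter probe sets alone keep 28 of the genes, and 31 remain without x_at sets. Matrigel has the fewest arrays. Both arrays that stood apart enter the first comparison, Matrigel 3 also the second and Instigator 4 also the third.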
